A study of Mus musculus with 9 samples.

Results

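The genes described here are 40 genes of the cell division cycle, from the licensing of DNA replication to the separation of chromosomes, and were taken by name from a table of 55468 genes. All 40 were found in the table, all are protein-coding in the GENCODE M21 annotation, and they lie on 16 chromosomes. RNA of the mouse intestinal tract was sequenced in 9 conditions with 1 library each. In 8 of them the mice drank dextran sulfate sodium (DSS), which damages the lining of the gut and serves as a model of inflammatory bowel disease, from day 18 of rearing.

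Tissue was collected at day 28 from R (normal diet), 1K (methionine-deficient diet), 2K (diet lacking tryptophan and niacin) and 3K (diet lacking methionine, tryptophan and niacin). It was collected at day 33 from RR (normal diet throughout) and from 1KR, 2KR and 3KR, whose mice had the diets of 1K, 2K and 3K until day 28 and normal diet after it. C stands for mice on normal feed without DSS, collected at day 34. The labels do not give the strain or age of the mice, or whether a library held tissue of 1 animal or of several. With 1 library a condition, a difference between 2 libraries has no replicate error, and no p-value is given for it. C differed from R and RR in DSS and also in the day of collection, and these cannot be told apart.

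Cells copy their DNA in S phase and divide in M phase. Entry into S phase depends on E2F transcription factors, which switch on the cyclin E genes and the genes of replication, whereas the mitotic genes are switched on later by B-MYB and FOXM1 and are held silent in resting cells by the DREAM complex, which acts through a promoter element called CHR, often with CCAAT boxes nearby. In the intestine, division takes place mainly in the crypts, where stem cells and their transit-amplifying daughters replace the epithelium throughout life. These background roles were not measured here.

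The promoters are shown first because the genes of replication and those of mitosis differed in the motifs they hold. RefSeq promoter windows (GRCm38.p6, from 250 bases before to 50 bases after the start) were available for 32 of the 40 genes. Each stretch below is the 190 bases before the RefSeq start, 5′ to 3′ on the gene's strand, and capitals mark matches to E2F (the letters TTCCCGC, or else TTGGCGC, or else TTGCCGC, or else TTCGCGC), CHR (the letters TTTGAA, or else TTTAAA) or CCAAT motifs on either strand. Mcm6 stands for the replication genes with E2F matches, Ccnb2 and Top2a for the mitotic genes with CHR and CCAAT, and Cdk1 holds all 3 kinds.
Mcm6, chr1:128359706-128359895, minus strand: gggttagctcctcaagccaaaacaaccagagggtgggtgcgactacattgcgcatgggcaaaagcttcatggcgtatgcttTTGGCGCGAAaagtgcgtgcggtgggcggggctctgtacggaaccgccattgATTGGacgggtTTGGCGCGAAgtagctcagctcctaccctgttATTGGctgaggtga
Ccnb2, chr9:70421555-70421744, minus strand: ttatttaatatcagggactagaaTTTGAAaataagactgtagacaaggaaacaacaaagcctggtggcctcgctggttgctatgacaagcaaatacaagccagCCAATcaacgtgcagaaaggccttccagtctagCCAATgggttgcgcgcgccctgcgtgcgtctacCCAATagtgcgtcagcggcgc
Cdk1, chr10:69352913-69353102, minus strand: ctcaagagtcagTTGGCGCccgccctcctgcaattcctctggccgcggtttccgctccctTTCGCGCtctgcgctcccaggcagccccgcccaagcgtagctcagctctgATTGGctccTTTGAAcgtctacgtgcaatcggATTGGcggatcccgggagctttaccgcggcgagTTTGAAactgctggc
Top2a, chr11:99024190-99024379, minus strand: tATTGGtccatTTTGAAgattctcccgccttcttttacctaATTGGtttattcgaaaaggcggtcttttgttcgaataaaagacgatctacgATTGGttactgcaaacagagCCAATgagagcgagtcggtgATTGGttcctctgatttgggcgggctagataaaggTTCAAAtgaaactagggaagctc

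The Mcm6 stretch held 4 E2F matches, which overlap in pairs because TTGGCGCGAA contains TTGGCGC and the reverse complement of TTCGCGC, and 2 CCAAT boxes. Ccnb2 had 1 CHR and 3 CCAAT matches and Top2a 2 CHR and 5 CCAAT matches, both with no E2F match in the stretch. Cdk1 had 2 matches to each of the 3 motifs. Over the whole windows, an E2F match was present in 7 of 13 genes with replication or S phase entry roles and in 3 of 19 with mitotic roles. The share was 10.9% of all 27025 genes with a window of the same length. A gene with several windows was counted once, if any of them matched. A CHR and a CCAAT match together were present in 4 of those 13 and in 16 of those 19, beside 12.2% of all genes with a window. A match describes letters only and is no measure of a factor's binding.

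Each library had markers of its labelled tissue, since the geometric mean of 12 gut epithelium markers lay between 136 FPKM (2K) and 330.2 FPKM (1K). FPKM count fragments in proportion to transcript length and to the mapped fragments of the library, so they compare genes per length. The listed markers of pancreatic acinar cells (10), stomach (7) and liver (8) together took 9.75% of all FPKM of 2K and 7.0% of those of 3K. They took at most 0.0450% in each of the other 7 libraries, so 2K and 3K stand apart in these markers. Other genes of these organs were not counted. These 2 libraries also differed from each other: 2K held 4.78% acinar, 2.19% stomach and 2.79% liver markers. 3K held 6.97% acinar markers, with the 7 stomach markers all under 1 FPKM and liver markers at 0.0316%, below the 0.0442% of C. The other 7 libraries were not alike in the 5 ileal enterocyte markers. Their geometric mean was 193.3 FPKM in C, 146.8 in R and 63.7 in 1K. At day 33 it was 10.3 in RR, 5.27 in 1KR, 32.2 in 2KR and 63.8 in 3KR. With 1 library each, the piece of tissue taken cannot be told apart from diet, DSS, refeeding or day in any comparison. For a transcript of 2 kb, 1 FPKM stood for an estimated 30.8 (3KR) to 66.5 (2KR) fragments. Fewer dividing cells and less RNA per dividing cell cannot be told apart in whole tissue.

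Taken over the 40 genes, the geometric mean was 7.81 FPKM in C and 7.17 in R. At day 28 it was 4.15 in 1K, 2.29 in 2K and 5.67 in 3K, and at day 33 it was 6.13 in RR, 7.68 in 1KR, 8.59 in 2KR and 7.70 in 3KR. 2K was the lowest of the 9 libraries for 37 of the 40 genes, 1K for 2 (Mcm7 and Cenpa) and 3K for 1 (Cdc45). The highest value was in 2KR for 15 genes, in 3KR for 8, in C and in 1KR for 6 each, in 3K for 3 and in R for 2. All 3 deficient libraries of day 28 lay below all 6 others for 20 of the 40 genes, beside 4.49% of 21249 genes in the table, and above them for none of the 40, beside 5.55%. Among these 20 were Mcm2, Mcm5, Mcm6, Ccne1, Ccne2, E2f1, Cdk1 and Top2a. The count was 37 without 3K, so 3K was the deficient library that most often overlapped the others.

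**Figure D1:**
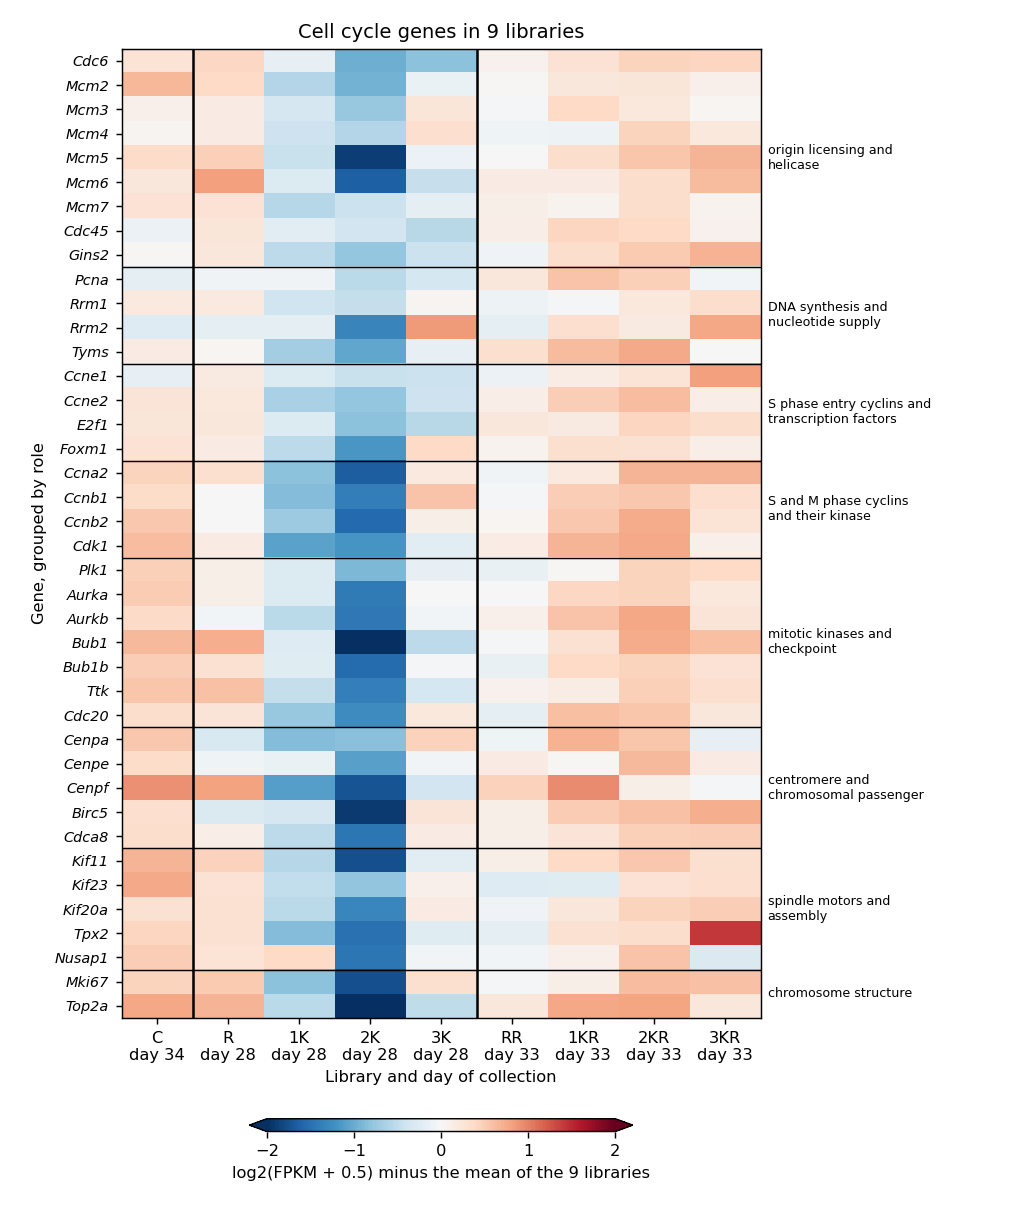
Level of each of the 40 genes in the 9 libraries, as log2(FPKM + 0.5) minus that gene's mean over the 9 libraries, with genes grouped by role and libraries by day. Blue is below and red above the gene's mean, and the 2K column is the darkest blue, with 37 of 40 genes at their lowest there.

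Origin licensing and the replicative helicase came first in the order of the cycle. Cdc6 loads the MCM2-7 ring onto origins, and Cdc45 and Gins2 turn it into the active helicase. Mcm2 stood at 9.57 FPKM in C, 7.93 in R, 3.75 in 1K, 2.80 in 2K, 5.28 in 3K, 5.98 in RR, 6.96 in 1KR, 7.03 in 2KR and 6.34 in 3KR. Mcm6, another ring subunit, stood at 11.3 FPKM in C, 17.3 in R, 7.82 in 1K, 2.75 in 2K, 6.86 in 3K, 10.8 in RR, 10.7 in 1KR, 12.3 in 2KR and 15.2 in 3KR. For both genes the 3 deficient libraries of day 28 lay below every other library, and for Mcm2 the 4 libraries of day 33 lay between them and R. Against R, Mcm5 was also low in 2K, at 1.52 beside 9.74 FPKM, but Mcm7 was not at its lowest there, at 8.35 in 2K and 7.55 in 1K. Mcm3 and Mcm4 were above R in 3K, at 8.34 beside 7.94 and 7.16 beside 6.35, while Cdc6 was at 0.703 in 3K and 2.34 in R. In 3K the ring subunits thus lay on both sides of R.

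Genes of DNA synthesis and nucleotide supply followed no single pattern. Pcna, the sliding clamp of the DNA polymerases, stood at 27.7 FPKM in C, 29.6 in R, 29.9 in 1K, 21.4 in 2K, 24.4 in 3K, 36.6 in RR, 46.7 in 1KR, 43.7 in 2KR and 30.035 in 3KR, so that 1K and R were close and 1KR and 2KR were the highest. Rrm2, the regulated subunit of the reductase that makes deoxynucleotides, stood at 7.28 FPKM in C, 7.64 in R, 7.60 in 1K, 3.20 in 2K, 16.3 in 3K, 7.73 in RR, 11.1 in 1KR, 9.96 in 2KR and 15.3 in 3KR, which put 3K above all 8 other libraries and 2K below them. Rrm1, the partner subunit, was at 10.7 in R, 6.57 in 2K and 9.77 in 3K. Tyms, which makes the thymidine nucleotide, was at 5.16 in 1K and 3.97 in 2K beside 8.93 in R.

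Of the 4 cyclins and factors of S phase entry, all but Foxm1 were lowest in the 3 deficient libraries of day 28. Cyclin E1 and E2 activate CDK2 at the start of S phase. Ccne1 was at 1.89 FPKM in C, 2.55 in R, 1.72 in 1K, 1.48 in 2K, 1.49 in 3K, 1.97 in RR, 2.47 in 1KR, 2.74 in 2KR and 4.25 in 3KR. Ccne2 was at 5.42 FPKM in C, 5.25 in R, 2.68 in 1K, 2.40 in 2K, 3.22 in 3K, 4.97 in RR, 6.51 in 1KR, 7.13 in 2KR and 4.97 in 3KR. Both had 1K, 2K and 3K below the 6 other libraries, and Ccne1 was highest in 3KR. E2f1, a member of the E2F family, stood at 1.35 FPKM in C, 1.34 in R, 0.791 in 1K, 0.384 in 2K, 0.567 in 3K, 1.32 in RR, 1.27 in 1KR, 1.59 in 2KR and 1.48 in 3KR, a low level in every library. Foxm1, the activator of the mitotic genes, stood at 6.96 FPKM in C, 6.31 in R, 3.75 in 1K, 2.22 in 2K, 7.502 in 3K, 5.91 in RR, 7.07 in 1KR, 6.98 in 2KR and 6.18 in 3KR, and here 3K was the highest and 2K the lowest of the 9.

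Cyclins A2, B1 and B2 with their kinase CDK1 drive cells through S phase and into mitosis. Ccna2 stood at 17.0 FPKM in C, 15.6 in R, 6.80 in 1K, 3.62 in 2K, 14.2 in 3K, 11.8 in RR, 14.3 in 1KR, 20.2 in 2KR and 20.1 in 3KR. Ccnb1 stood at 6.19 FPKM in C, 4.73 in R, 2.37 in 1K, 1.49 in 2K, 7.19 in 3K, 4.58 in RR, 6.80 in 1KR, 7.03 in 2KR and 6.04 in 3KR. 3K lay within the range of the normal-diet libraries for Ccna2 and above all 8 others for Ccnb1, whereas 1K and 2K lay below all 7 others for both. Cdk1 stood at 18.6 FPKM in C, 13.5 in R, 5.48 in 1K, 5.0 in 2K, 10.2 in 3K, 13.4 in RR, 19.6 in 1KR, 20.7 in 2KR and 12.9 in 3KR, with all 3 deficient libraries below the 6 others. Ccnb2 followed Ccna2 in 2K, at 1.91 beside 6.61 FPKM in R.

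The kinases and the spindle checkpoint follow in mitosis. Plk1, a kinase of spindle assembly and mitotic entry, stood at 9.11 FPKM in C, 6.99 in R, 5.17 in 1K, 3.21 in 2K, 5.66 in 3K, 5.71 in RR, 6.49 in 1KR, 8.92 in 2KR and 8.60 in 3KR. The 3 deficient libraries were the lowest, although RR at 5.71 was close to 3K. Bub1, a checkpoint kinase at the kinetochore, had the widest range of the 40 genes, 16.2-fold from lowest to highest. It stood at 6.13 FPKM in C, 6.45 in R, 3.00 in 1K, 0.405 in 2K, 2.42 in 3K, 3.63 in RR, 4.73 in 1KR, 6.57 in 2KR and 5.90 in 3KR. The other genes of this role were lowest in 2K as well: Aurka was at 2.00 beside 6.69 in R, Aurkb at 2.15 beside 6.38, Bub1b at 1.02 beside 4.94 and Ttk at 0.432 beside 3.12. Cdc20, the activator of the anaphase-promoting complex, was at 2.40 in 2K, 7.52 in 3K and 7.86 in R.

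Centromere and chromosomal passenger genes did not move as 1 set. Cenpa, the histone H3 variant of the centromere, stood at 15.6 FPKM in C, 8.50 in R, 5.56 in 1K, 5.68 in 2K, 14.8 in 3K, 9.94 in RR, 17.3 in 1KR, 15.8 in 2KR and 9.42 in 3KR, so that R was lower than C and 3K was higher than R. Birc5, the passenger protein survivin, stood at 11.2 FPKM in C, 7.07 in R, 6.80 in 1K, 1.97 in 2K, 10.6 in 3K, 9.51 in RR, 12.6 in 1KR, 13.4 in 2KR and 14.8 in 3KR, with 1K close to R and 2K alone far below. Cenpf, a large kinetochore protein, differed most of the 40 genes in 1K and stood at 6.56 FPKM in C, 6.09 in R, 1.25 in 1K, 0.637 in 2K, 2.39 in 3K, 4.66 in RR, 6.71 in 1KR, 3.58 in 2KR and 3.16 in 3KR. Cenpe was at 2.89 in 1K and 3.01 in R, and Cdca8 at 4.56 and 7.41.

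Among the spindle motors and assembly factors, Kif11, the kinesin that separates the spindle poles, was at 6.15 FPKM in R, 2.76 in 1K, 0.932 in 2K and 3.67 in 3K. Tpx2, which activates Aurora A on the spindle, stood at 6.37 FPKM in C, 5.82 in R, 2.30 in 1K, 1.32 in 2K, 3.85 in 3K, 3.98 in RR, 5.83 in 1KR, 6.06 in 2KR and 13.2 in 3KR, with 3KR above the other 8 libraries. Nusap1 was at 5.50 in 1K, above R at 5.01, and at 1.18 in 2K. Kif23, a motor of cytokinesis, was highest in C at 25.1, and Kif20a was lowest in 2K at 1.62 beside 5.98 in R.

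Mki67 and Top2a act on chromosomes and serve as marks of dividing cells. Mki67 stood at 20.8 FPKM in C, 21.9 in R, 8.37 in 1K, 4.11 in 2K, 18.9 in 3K, 14.7 in RR, 16.5 in 1KR, 23.3 in 2KR and 23.0 in 3KR. Top2a, the topoisomerase that untangles sister DNA, stood at 35.9 FPKM in C, 33.6 in R, 14.2 in 1K, 3.49 in 2K, 14.5 in 3K, 24.4 in RR, 35.9 in 1KR, 36.3 in 2KR and 24.6 in 3KR. Both were lowest in 2K, and in 3K Mki67 was close to R while Top2a was close to its level in 1K.

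Under methionine deficiency alone (1K against R), 38 of the 40 genes were lower, beside 47.8% of the genes compared. The median log2 difference was -0.74, on the scale of log2(FPKM + 0.5) used for all differences here, with a gene compared where it reached 1 FPKM in 1 or both libraries. At least 2-fold lower were 10 of 40 genes, beside 8.63% of all 18165 genes, and none was 2-fold higher, beside 7.17%. The largest differences were in Cenpf (-1.92), Mki67 (-1.34) and Cdk1 (-1.22), and the smallest in Rrm2 (-0.01), Pcna (0.01) and Nusap1 (0.12). By role, the median was -1.28 for the 2 chromosome genes and -1.004 for the cyclins and their kinase, and it was -0.30 for DNA synthesis. With median-of-ratios scaling, which moved the median of all genes from 0.03 to -0.15, the count of 2-fold lower genes was 17. Cell type markers differed between the same 2 libraries. All 7 fibroblast markers were lower in 1K than in R (median -2.53), as were all 7 Paneth cell markers (-2.17), all 7 macrophage markers (-1.22) and all 7 B cell markers compared (-1.59). Also lower were 11 of 12 crypt base stem cell markers (-0.92) and all 6 smooth muscle markers (-0.65). All 10 enterocyte markers were higher (1.41), as were 8 of 9 T and NK cell markers (0.77) and 7 of 12 gut epithelium markers (0.18). Their part in the cell cycle values was not tested.

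Under tryptophan and niacin deficiency (2K against R), all 40 genes were lower, beside 49.1% of the genes compared, and the median was -1.38. At least 2-fold lower were 29 of 40, beside 14.1% of 19035 genes, with none 2-fold higher, beside 14.7%. The largest differences were in Top2a (-3.10), Bub1 (-2.94) and Cenpf (-2.54), and the smallest in Pcna (-0.46), Cenpa (-0.54) and Cdc45 (-0.62). All 7 mitotic kinases and checkpoint genes, all 5 spindle genes and all 4 cyclin and Cdk1 genes were past 2-fold, whereas 4 of 9 licensing genes and 2 of 4 DNA synthesis genes were. The median was -1.53 for the mitotic kinases, -1.72 for the spindle genes, -0.99 for licensing and -0.87 for DNA synthesis.

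The gut epithelium markers were themselves lower in 2K, with a median of -1.08 over 12 genes. When each library was scaled to 5 such markers, the median of all genes became 1.26 and that of the 40 genes -0.30, with 25 of 40 lower and 8 at least 2-fold lower. How far the smaller share of epithelial RNA or the RNA of other organs went with the cell cycle values was not tested. With the listed acinar, stomach and liver markers left out and values rescaled, a step added after the values were seen, 25 of 40 were 2-fold lower. Other RNA of those organs stayed in.

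Under deficiency of all 3 nutrients (3K against R), the difference was smaller. Lower were 30 of the 40 genes, beside 49.8% of the genes compared, with a median of -0.28, although that median was 0.56 with scaling to gut epithelium, which moved all genes to 0.81. At least 2-fold lower were 5 of 40, beside 13.4% of 18873 genes, and 1 was 2-fold higher, beside 11.6%, so that neither share exceeded its background. The lowest were Mcm6 (-1.27), Bub1 (-1.25) and Cdc6 (-1.24), and the highest Rrm2 (1.05), Cenpa (0.76) and Ccnb1 (0.56). The comparisons of 1K, 2K and 3K with R share the R library.

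**Figure D2:**
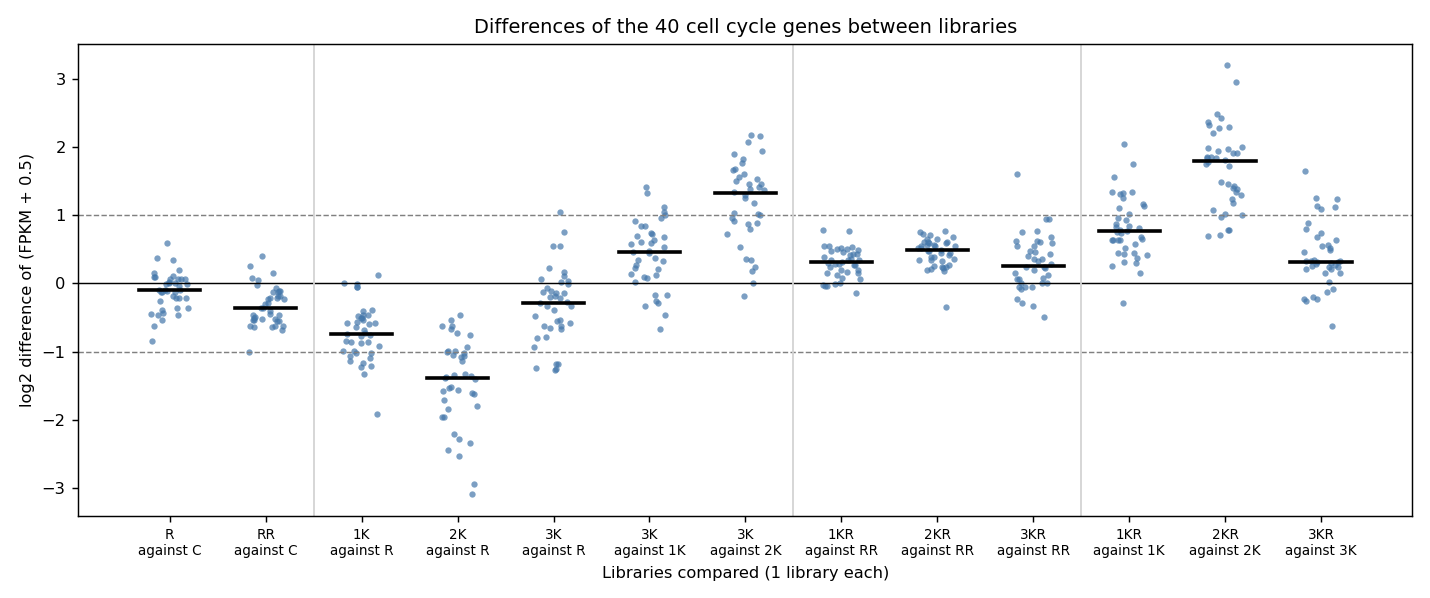
Log2 difference of (FPKM + 0.5) for each of the 40 genes (points, with genes under 1 FPKM in both libraries left out) in 13 comparisons of 2 libraries, with the median as a black bar and dashed lines at a 2-fold difference. The points of 2K against R lie lowest, with a median of -1.38, and those of 2KR against 2K highest, with a median of 1.80.

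The 2 libraries lacking tryptophan and niacin were then compared with each other. 3K, which also lacked methionine, was higher than 2K for 37 of 38 genes, beside 50.2% of the genes compared, with a median of 1.33. At least 2-fold higher were 25 of 38, beside 5.99% of 18485 genes, and Cdc6 and E2f1 were under 1 FPKM in both. With only the listed acinar, stomach and liver markers left out and values rescaled, 24 were 2-fold higher. The stomach and liver markers were lower in 3K than in 2K by medians of -11.03 and -6.99, and the acinar markers differed by 0.22. The largest were Rrm2 (2.18), Birc5 (2.17) and Mki67 (2.07), and Cdc45 was the only gene below (-0.18). The mitotic roles had medians from 1.35 to 1.99, and licensing, DNA synthesis and S phase entry had medians of 0.86, 0.71 and 0.36. 3K against 1K gave 5 of 39 genes 2-fold higher, beside 15% of 18573 genes, and 32 of 39 higher by any amount, beside 48.3%. The largest of these were Ccnb1 (1.42), Cenpa (1.33) and Mki67 (1.13).

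A lack of methionine thus went with lower values on the normal background (1K below R) and with higher values on the background without tryptophan and niacin (3K above 2K). The difference between these differences, which uses 4 separate libraries and was computed after the values were seen, was above 0 for all 40 genes, beside 45.7% of 17577 genes. It was at least 1 on the log2 scale for 35 of 40, beside 13.4%, with a median of 1.96 beside -0.07 over all genes. It was largest for Mki67 (3.41), Cenpf (3.26) and Top2a (3.12) and smallest for Pcna (0.17), Cdc45 (0.29) and Ccne1 (0.46). The genes of the mitotic roles were all at least 1, and S phase entry had a median of 0.996. With 1 library in each of the 4 conditions there was no error against which to test it.

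**Figure D3:**
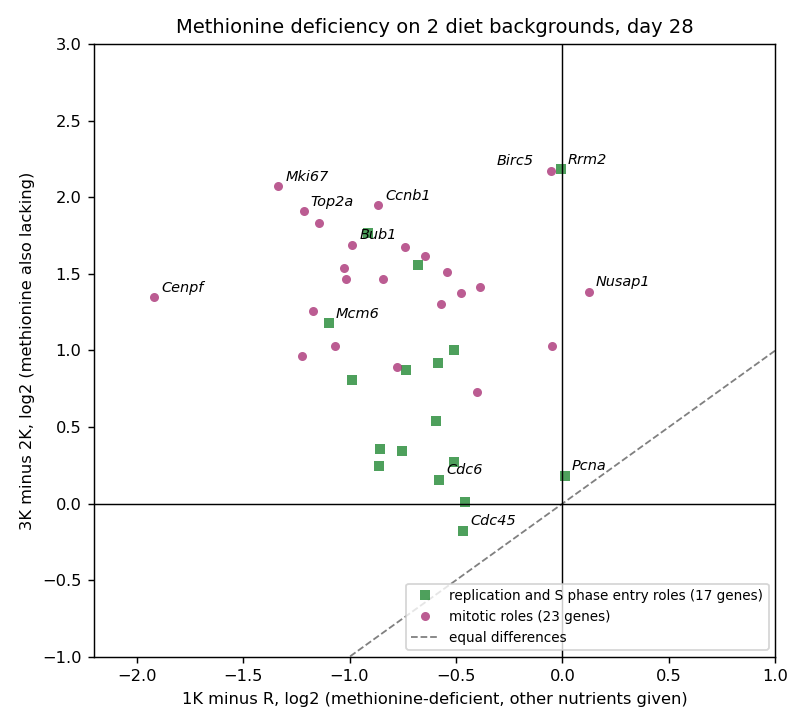
Log2 difference of (FPKM + 0.5) for each of the 40 genes between 3K and 2K (y axis) against that between 1K and R (x axis), with replication and S phase entry genes as green squares and mitotic genes as purple circles. All 40 points lie above the dashed line of equal differences, which Pcna and Cdc45 approach most closely.

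Markers of several cell types showed the same difference of differences. It was at least 1 for all 7 Paneth cell markers (median 4.36), 4 of 5 ileal enterocyte markers (3.63), all 7 fibroblast markers (2.83), all 8 B cell markers (2.52), all 3 erythroid markers that reached 1 FPKM (2.38), 5 of 6 smooth muscle markers (1.61), 5 of 7 macrophage markers (1.36) and 6 of 12 crypt base stem cell markers (0.999). It was at least 1 for none of 12 gut epithelium markers (0.12) and none of 10 acinar markers (0.20). Of 6 goblet cell markers, 3 were at least 1 and 1 was at most -1 (0.67). The median was below 0 for general enterocyte markers (-1.53), T and NK cells (-0.68), liver (-4.54) and stomach (-11.14). It was also below 0 for germinal centre B cells (-0.40) and for the 1 neutrophil precursor marker that reached 1 FPKM (-0.14). The pattern was thus not particular to the cell cycle genes. The summed B cell markers were 43.4 FPKM in R, 8.59 in 1K, 9.78 in 2K and 31.9 in 3K, and between 21.4 and 53.3 in the other 5 libraries. Dividing germinal centre B cells are known to express these cell cycle genes. The germinal centre markers summed to 17.9 to 29.1 FPKM with 1K as the highest. The 6 neutrophil precursor markers summed to at most 3.26 FPKM, in 3KR, where Prtn3 alone stood at 2.12. The part of these cell types in the cell cycle values was not tested.

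Crypt base stem cell markers differed from the cell cycle genes in 3K. Olfm4 stood at 313 FPKM in C, 214 in R, 3.51 in 1K, 1.03 in 2K, 0.916 in 3K, 199.98 in RR, 202 in 1KR, 274 in 2KR and 35.5 in 3KR. Lgr5 stood at 8.62 FPKM in C, 6.28 in R, 1.75 in 1K, 0.506 in 2K, 0.492 in 3K, 4.15 in RR, 2.05 in 1KR, 4.55 in 2KR and 2.47 in 3KR. Both were lowest in 2K and 3K. The cell cycle genes of 3K lay lower than R for 30 of 40 and mostly above 2K, whereas Olfm4 and Lgr5 were near 2K. In 2K and 3K, however, Lgr5 was under 1 FPKM and Olfm4 close to 1 FPKM, so their nearness there says little. Not all stem cell markers were alike: of 9 compared, 3 were higher in 3K than in 2K and 6 lower. Axin2 was at 3.38 in 3K and 1.79 in 2K, and Msi1 was above R in 3K, at 6.70 beside 4.43. The geometric mean over the 12 stem cell markers was 3.82 FPKM in 3K and 3.85 in 2K, beside 14.2 in R, whereas that of the 40 genes was 5.67, 2.29 and 7.17.

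**Figure D4:**
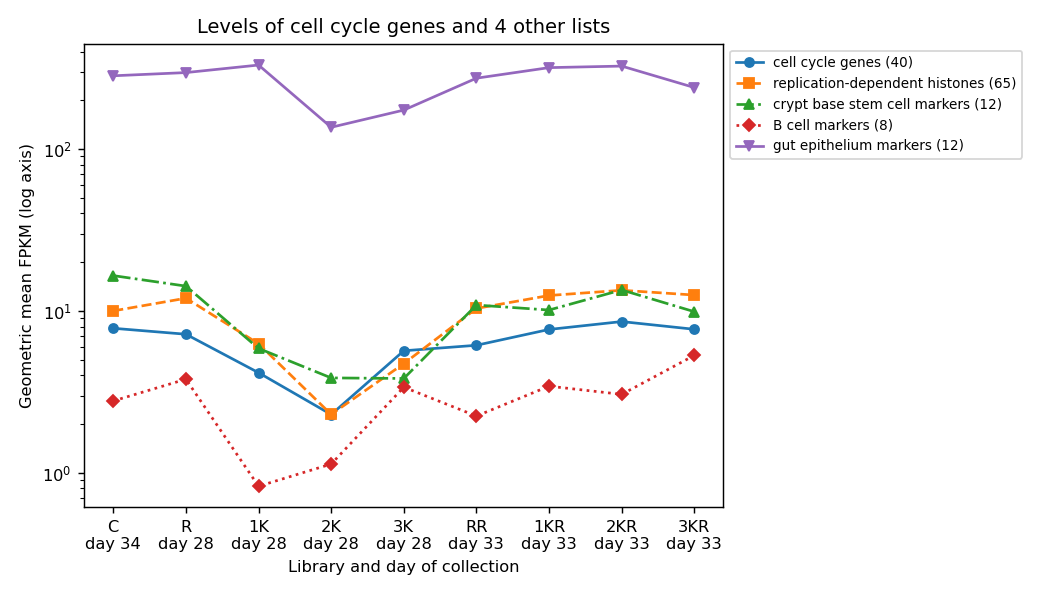
Geometric mean FPKM, taken on the log2(FPKM + 0.5) scale, of the 40 cell cycle genes and of 4 other lists in the 9 libraries, on a log axis. Cell cycle genes and B cell markers were higher in 3K than in 2K, at 5.67 against 2.29 and 3.38 against 1.13 FPKM, whereas stem cell markers were at 3.82 and 3.85.

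At day 33, after 5 days of normal diet in the refed groups, the libraries of deficient diets were the higher ones. Against RR, 35 of 40 genes were higher in 1KR, 39 in 2KR and 32 in 3KR, beside 48.7%, 44.8% and 51.9% of the genes compared, with medians of 0.31, 0.49 and 0.26. Few were past 2-fold: none in 1KR, beside 2.47% of genes, none in 2KR, beside 2.67%, and only Tpx2 in 3KR (1.61), beside 11.4%. In 1KR the largest were Cdc20 (0.78), Cenpa (0.77) and Bub1b (0.55). In 2KR they were Bub1 (0.77), Ccna2 (0.76) and Cdc20 (0.73), and in 3KR Tpx2 was followed by Rrm2 (0.94) and Ccne1 (0.94). These 3 comparisons share RR, which had the lowest mean of the 4 libraries of that day. The same difference of differences was above 0 for 6 of 40 genes at day 33, beside 52.5% of all genes, with a median of -0.35 beside 0.04, and at most -1 for 6 of 40, beside 10.5%.

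Within each diet, the refed library was compared with the deficient one. In 2KR against 2K all 40 genes were higher, beside 45.6%, and 35 were at least 2-fold higher, beside 13.5% of 18395 genes, with a median of 1.80. The largest were Top2a (3.20), Bub1 (2.97) and Birc5 (2.50), and the smallest was Rrm1 (0.69). In 1KR against 1K, 39 of 40 were higher, beside 43.6%, and 12 were 2-fold higher, beside 6.57% of 17495 genes, led by Cenpf (2.05), Cdk1 (1.75) and Cenpa (1.56). In 3KR against 3K, 33 of 40 were higher, beside 50.4%, and 6 were 2-fold higher, beside 13.3% of 18879 genes, led by Tpx2 (1.65), Ccne1 (1.26) and Cdc6 (1.25). Cenpa was lower in 3KR than in 3K (-0.62). Scaling to gut epithelium gave 4 genes 2-fold higher in 2KR against 2K, with a median of 0.37 beside -1.60 over all genes, and gave 3KR against 3K a median of -0.05 beside -0.36. This scaling divides a library by a single factor and moves all genes nearly alike. The order of these medians was thus fixed beforehand and adds no support. Refeeding, the 5 days between collections and the piece of tissue taken cannot be told apart within a diet. On normal diet, RR was below R for 32 of 40 genes, beside 53.8%, with none past 2-fold in either direction, beside 5.29% lower and 5.42% higher.

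DSS on normal diet went with small differences. In R against C, 26 of 40 genes were lower, beside 48.4%, with a median of -0.10 and none past 2-fold, beside 3.22% lower and 4.43% higher. The lowest were Cenpa (-0.84), Birc5 (-0.63) and Ccnb2 (-0.53) and the highest Mcm6 (0.59), Cdc45 (0.37) and Ccne1 (0.35). In RR against C, 35 of 40 were lower, beside 51.9%, with a median of -0.37, and 1 gene, Kif23 (-1.01), was 2-fold lower, beside 5.81% of genes. Pcna was the highest there (0.40).

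Other genes of the pathway gave the following. Of 44 other G2 and M phase genes, 28 were at least 2-fold lower in 2K than in R and none higher, with a median of -1.43, beside 12 lower in 1K (-0.85) and 3 lower and 1 higher in 3K (-0.38). Of all genes compared, 14.1% were 2-fold lower in 2K, 8.63% in 1K and 13.4% in 3K, so the share in 3K was below that of all genes. In 2K the condensin subunit Ncaph was at 0.652 FPKM beside 7.38 in R, and Hmmr at 0.339 beside 4.28. Of 29 other S phase genes, 10 were 2-fold lower and 1 higher in 2K (median -0.67), and 4 were lower in 1K (-0.43). Uhrf1, which carries DNA methylation through replication, was at 15.4 in R, 5.21 in 1K, 1.42 in 2K and 4.79 in 3K. It was below R in 3K, like 30 of the 40 genes and unlike Ccnb1 and Foxm1.

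Ccnd1, the cyclin of the G1 phase, was at 24.4 FPKM in R, 19.4 in 1K, 3.96 in 2K and 9.03 in 3K. Ccnd2, a second D-type cyclin, was at 63.2, 126, 12.2 and 22.3 FPKM in the same order, which put 1K above R and the other diets below it. Of 10 G1 genes compared, 5 were 2-fold lower in 2K, 4 in 3K and none in 1K, beside 14.1%, 13.4% and 8.63% of all genes. Cdkn1a, the CDK inhibitor p21 and a p53 target, stood at 66.2 FPKM in C, 71.3 in R, 113 in 1K, 190.4 in 2K, 118 in 3K, 83.6 in RR, 102 in 1KR, 81.5 in 2KR and 67.4 in 3KR. It was highest in 2K, the library with the lowest cell cycle values. Of 11 p53 target genes, 6 were 2-fold higher in 2K, beside 14.7% of all genes, and 2K is the library that also held stomach, liver and acinar RNA. In 1K and in 3K 1 of 11 was, beside 7.17% and 11.6%, which is near the share of all genes. Trp53inp1 was at 16.1 in R, 8.84 in 1K, 104 in 2K and 47.3 in 3K.

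Replication-dependent histone genes are transcribed in S phase, and their mRNAs lack a poly(A) tail, so they are kept in libraries made without poly(A) selection. Summed over 65 such genes, the level was 1730 FPKM in C, 2065 in R, 1087 in 1K, 499.5 in 2K, 852 in 3K, 1756 in RR, 2075 in 1KR, 2249 in 2KR and 2179 in 3KR. The 3 deficient libraries of day 28 were the lowest, and 3K was below 1K, the opposite of the order of Mki67 and Ccnb1. The genes were found by name after the table was seen, and reads of near-identical copies could be split among them, so single histone genes are not given.

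The length of a gene's transcript and its promoter motifs were set beside the differences. Across the 40 genes, Spearman's rho between the log2 difference and the length of the longest transcript was -0.41 in 1K against R, beside -0.18 over 13197 protein-coding genes. It was -0.28 beside -0.10 in 2K and -0.23 beside -0.04 in 3K. These are correlations across genes, which are not independent replicates and share 2 libraries. By promoter motif, the median difference in 2K against R was -1.53 for 22 genes with a CHR match and -1.06 for 10 without, and -1.37 for 10 with an E2F match and -1.53 for 22 without. The ranges in 2K against R overlapped, from -3.10 to -0.54 with CHR and from -2.94 to -0.46 without. In 1K against R the medians were -0.76 with CHR and -0.59 without, and -0.86 with E2F and -0.61 without. In 3K against R they were -0.24 with CHR and -0.41 without, and -0.29 with E2F and -0.31 without. For both motifs the order thus differed between comparisons.

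A test was possible only in a fit over the 8 DSS libraries with day and both diet factors (limma, Benjamini-Hochberg adjustment over 17577 genes, threshold 0.05). It called none of the 40 genes in any of its 7 terms. For tryptophan and niacin deficiency at day 28 it called 0.188% of all genes, and 1 of the 40, Cdc6, had an unadjusted p under 0.05, with a coefficient of -1.03 ± 0.38 (SE) and an adjusted p of 0.259 in limma. In that term 38 of 40 coefficients were below 0, with a median of -0.45. The calls in this term were lost with any 1 of the 8 libraries left out. This was so even for a library of day 33, which does not enter this coefficient. Such a fit has fewer residual degrees of freedom than the 2 of the full fit. The loss therefore does not show that the calls rested on single libraries. Without a library of day 28, the model matches that day's remaining libraries exactly and takes its error from day 33 alone. Unadjusted p-values of such fits do not compare with those of the full fit, and their counts are not given. For the difference of the tryptophan and niacin effect between days the full fit called 0.148% of all genes, and 39 of 40 coefficients were above 0, with a median of 0.76. Here too the calls were lost with any 1 library left out, and the same limit applies. For methionine at day 28 and at day 33, tryptophan and niacin at day 33, day, and the methionine difference between days the full fit called 0% of all genes, and none of the 40 had an unadjusted p under 0.05. With some libraries of day 28 left out, members did have one for day, for methionine at day 28 and for the methionine difference between days. Those fits had the changed error described above. The 2 residual degrees of freedom of the fit are the interaction of both diets within a day, so the difference of differences described above entered its error.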

How the data were processed

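RNA-seq of 9 mouse intestinal libraries, 1 per condition, was analysed. Per the labels' protocols, total RNA was extracted with ISOGEN, ribosomal RNA was depleted and stranded libraries were made without poly(A) selection. The deposited values are FPKM per gene, per the file headers. Per the submitters' processing notes, HISAT2, Cuffdiff 2.2.1 and GRCm38 were used, with the annotation and any library scaling not given in the sources used here. The fragments per FPKM, estimated from the step between low FPKM values, therefore include any such scaling.

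Libraries were compared as log2(FPKM + 0.5) in 14 pairs, keeping a gene where 1 or both libraries reached 1 FPKM, and genes at least 2-fold apart were counted without a test. A linear model of day and both diet factors within day was fitted to the 8 DSS libraries, over genes whose mean reached 1 FPKM, with limma 3.58.1 (R 4.3.3, mean-variance trend) and checked on simulated data. Its p-values measure only the spread left by the model, with 2 residual degrees of freedom. Tables were handled in Python 3.11.15 with pandas 2.3.3. Coordinates and transcript lengths are from GENCODE M21 and promoters from RefSeq (GRCm38.p6).

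All 40 genes may be named. Full values are given for 16 chosen markers and, per comparison, for the genes with the largest and smallest differences, and at most 4 genes per other list are named. The genes and lists were chosen with earlier results of these data known. Other settings tried were pseudocounts of 1 and 0.1, a floor of 5 FPKM or none, median-of-ratios scaling (7809 genes), scaling to 5 gut epithelium genes, a fit without trend or with common diet effects, leaving out each library, and a shorter promoter window. The replicate error of a condition could not be estimated. Only 9 histone genes carry the older names of the rule first written, so a wider name pattern was used.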

Additional observations from a re-analysis of the deposited data

Results flagged for a closer look

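The difference between 3K and 2K and that between 1K and R went in opposite directions for the cell cycle genes at day 28, with a median difference of 1.96 on the log2 scale over the 40 genes. Mki67 was at 18.9 FPKM in 3K and 4.11 in 2K, and at 8.37 in 1K and 21.9 in R. The difference of each deficient or refed library from normal diet also differed between the days, taken as the day 33 difference minus the day 28 difference. The median was 1.07 for the methionine-deficient diet (1KR against RR, 1K against R), 1.94 for the diet without tryptophan and niacin, and 0.63 for the diet without all 3 nutrients. All 3 medians use the same R and RR libraries, so they are not independent. RR was lower than R for 32 of 40 genes (median -0.28), which raises all 3. 2K and 3K also held RNA of other organs. None of these differences was tested within these comparisons, because each condition had 1 library.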

How the results depend on the processing

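No paired analysis was possible because each condition had 1 library and the labels give no replicate numbers. Recomputed under each alternative, counts stayed within 1.5 times the reported one in 300 cases and moved further in 21. Scaling to gut epithelium moved 12 counts. At least 2-fold lower were then 1 of 40 genes in R against C, 24 in 1K against R, 8 in 2K against R, 0 in 3K against R and 1 in 3KR against 3K. At least 2-fold higher were 5 in 3K against R, 34 in 3K against 1K, 14 in 3KR against RR, 4 in 2KR against 2K and 2 in 3KR against 3K. This scaling also moved the median of all genes, to 0.81 in 3K against R, 1.19 in 3K against 1K, 0.59 in 3KR against RR, 1.26 in 2K against R, -0.39 in 1K against R, -1.60 in 2KR against 2K and -0.36 in 3KR against 3K, and 40.3%, 58.7% and 26.2% of all genes were 2-fold higher in the first 3 of these, so these counts moved with those of all genes. Genes with 1K, 2K and 3K below the 6 other libraries numbered 1, and the day 33 difference of differences was at most -1 for 0 genes in place of 6. The median became 0.56 in 3K against R and -0.0501 in 3KR against 3K. Median-of-ratios scaling gave 17 genes lower in 1K against R, 9 higher in 3K against 1K, 3 higher in 3KR against RR and 2 for that day 33 count. A pseudocount of 1 gave 0 genes lower in RR against C, one of 0.1 gave 2 higher in 3KR against RR, and a floor of 5 FPKM gave 3 higher in 3KR against 3K. CHR with CCAAT was found in 13 of 32 genes in the 250 bases before the start alone, in place of 20, since this window is shorter. Leaving out 1 library at a time, the count of genes with all 3 deficient libraries lowest ranged from 20 to 37, the latter without 3K. The coefficient of Top2a for tryptophan and niacin at day 28 was -1.53. It was -3.10 without 1K or 3K, which is 2K against R, and 0.0270 without R or 2K, which is 3K against 1K. These values repeat comparisons of 2 libraries and are no check of the fit. Otherwise the cause was not tested. The alternatives for the difference of differences, for that count and without the listed organ markers were chosen after seeing the data. With 1 FPKM at 30.8 to 66.5 fragments for 2 kb, values under 1 FPKM, such as Bub1, Ttk and E2f1 in 2K, rest on few fragments.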

Other observations

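Paneth cell markers, which like the dividing cells belong to the crypt, had a geometric mean of 229.3 FPKM in R, 55.3 in 1K, 15.4 in 2K and 68.7 in 3K. At day 33 it was 172.5 in RR, 154.0 in 1KR, 306.1 in 2KR and 29.4 in 3KR. In 3KR the 40 cell cycle genes were at 7.70 FPKM and Olfm4 at 35.5, beside 7.81 and 313 in C. The smooth muscle markers were also highest there, at 227.3 FPKM beside 55.3 to 141.2 in the other 8 libraries.

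E2f2 was the gene of the E2F and DREAM list with the largest difference in 1K and in 2K. It stood at 16.8 FPKM in C, 6.12 in R, 1.82 in 1K, 1.21 in 2K and 5.76 in 3K. At day 33 it was at 7.25 in RR, 6.40 in 1KR, 8.36 in 2KR and 8.73 in 3KR, and C was higher than all 8 DSS libraries.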
